A study of Mus musculus with 15 samples.

Results

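The clustered protocadherin genes lie on mouse chromosome 18, and the peaks of PRC1 subunits there were taken from a window of 1000 kb between 37.05 and 38.05 Mb of the mm9 build. All peaks whose centre fell in this window were included, whatever their height, and these were 143 of the 30692 peaks of 5 ChIP-seq lists. The window was read in 3 stretches that hold the Pcdha, Pcdhb and Pcdhg families in that order. They are called the alpha stretch (37.05 to 37.38 Mb), the beta stretch (37.38 to 37.80 Mb) and the gamma stretch (37.80 to 38.05 Mb). Mel18 was mapped in undifferentiated mouse E14Tg2A embryonic stem cells (ESCs), kept in 2i medium with LIF. Mel18, Cbx2, Ring1b and RYBP were mapped in early cardiac mesoderm precursors (MES) that were differentiated from this line with BMP4. One Mel18 antibody lot served in both cell states, and the Ring1b antibody was home-made. The labels name no genetic change for these samples, and all came from 1 cell line. The cell types are those of the labels and were not checked against marker expression, since the RNA-seq samples were not analysed here.

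Clustered protocadherins are cadherin-like adhesion proteins of the cell surface, known for the different combinations in which neurons express them and for self-recognition between branches of the same neuron. In the alpha and gamma families, a row of variable exons, each with its own promoter, is spliced to constant exons that the family shares, whereas each beta gene has its own coding exon and no constant exons. RefSeq names, on the GRCm38.p6 assembly, 14 Pcdha genes from Pcdha1 to Pcdhac2, 22 Pcdhb genes from Pcdhb1 to Pcdhb22 and 22 Pcdhg genes from Pcdhga1 to Pcdhgc5, in that order. Slc25a2 and Taf7 lie between the beta and gamma families, and Diaph1 and Hdac3 follow the gamma family. That assembly is not the build of the peaks, so no peak was assigned to a gene and no distance to a promoter was measured. PRC1 is a Polycomb complex that keeps developmental genes silent. Ring1b is its catalytic subunit and Mel18 (Pcgf2) is one of its Pcgf subunits. The chromodomain protein Cbx2 belongs to canonical PRC1, and RYBP belongs to variant PRC1.

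Each list came from 1 sample, so a difference between lists had no replicate check and no test between lists was made. Read depth was unknown, and the number and width of peaks also depend on depth and calling. Percentages carry exact Clopper-Pearson 95% intervals that cover counting only, and neighbouring peaks of 1 cluster are not independent. The score of a peak is the authors' own value on an unstated scale, and it was read only as a percentile within its own list.

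In bins of 1000 kb laid over the genome in register with the window, no other bin held as many Mel18 peaks of either state, or as many Cbx2 peaks. Mel18 had 52 peaks in ESCs and 22 in MES. Of the other MES lists, Cbx2 had 21, Ring1b 31 and RYBP 17. The next highest bin held 41 ESC Mel18 peaks, 20 MES Mel18 peaks and 14 Cbx2 peaks. For Ring1b, 1 other bin also held 31 peaks, and for RYBP 19 bins held more than 17. Bins with a peak held a median of 3 peaks of ESC Mel18, Ring1b or RYBP and 2 of MES Mel18 or Cbx2. These ranks count peaks and not bound length. By covered length, 4 bins exceeded the window's 58.1 kb of ESC Mel18, 26 its 43.4 kb of MES Mel18, 18 its 53.7 kb of Cbx2, 25 its 43.3 kb of Ring1b and 47 its 25.7 kb of RYBP.

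**Figure D1:**
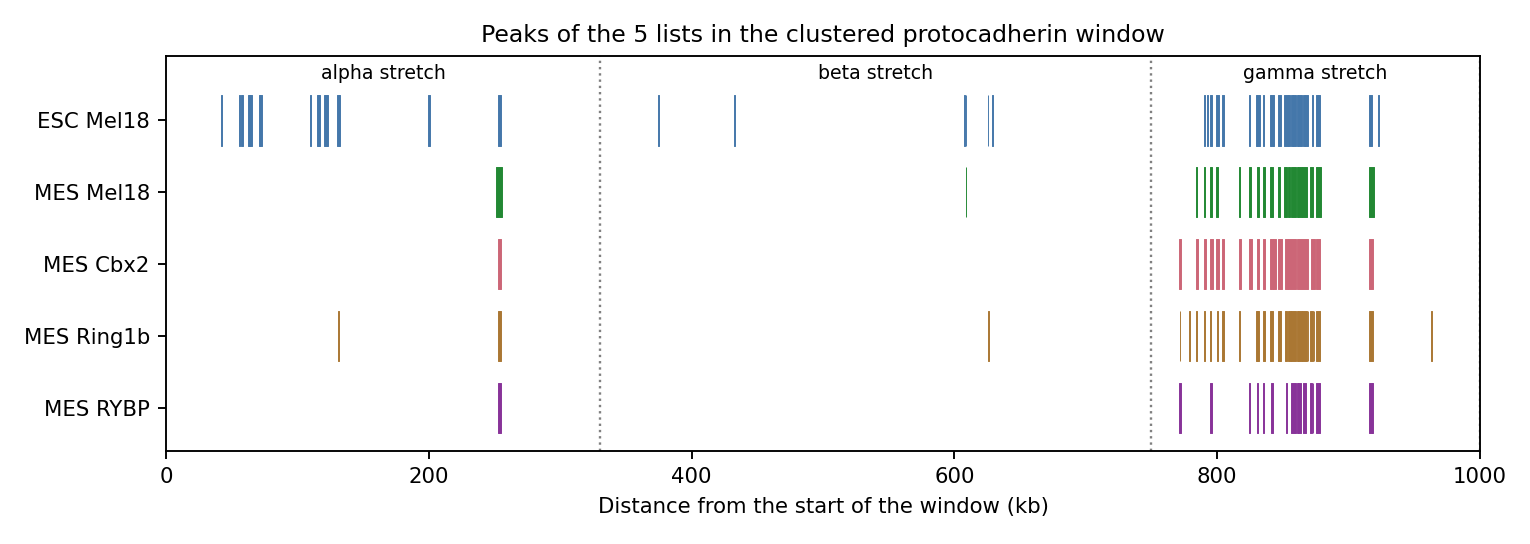
Peaks of the 5 lists drawn to scale along the window (x axis, distance from the window start in kb), 1 row per list, with dotted lines at the ends of the stretches and a thin outline around each peak so that narrow ones stay visible. The alpha stretch held 20 ESC Mel18 peaks and 1 site common to all 5 lists, whereas every list had a dense run of peaks in the gamma stretch.

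Peaks of the window lay close together, and their widths could not be told from those of the whole lists. ESC Mel18 peaks had a median width of 898 bp here and 1103 bp over the whole list, and MES Mel18 peaks 1441 and 1855 bp. Cbx2 peaks measured 1863 and 2508 bp, Ring1b peaks 1060 and 1178 bp, and RYBP peaks 1140 and 1476 bp. Each whole-list median lay inside the exact 95% interval of the window's median. That interval ran from 727 to 1197 bp for ESC Mel18 and from 1096 to 2934 bp for MES Mel18. For the 6 ESC Mel18 peaks of the beta stretch alone, the median was 473 bp (interval 387 to 700), below the whole-list 1103 bp. Centres of neighbouring peaks were a median of 3346 bp apart in ESC Mel18 and 5032 bp in MES Mel18. In Cbx2 the distance was 4964 bp, in Ring1b 4163 bp and in RYBP 5270 bp. The whole-list medians, in this order, were 108.8, 189.6, 260, 93.9 and 117.2 kb.

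The 3 stretches differed in how many peaks of each list they held. The alpha stretch had 20 ESC Mel18 peaks against 1 of MES Mel18, 1 of Cbx2, 2 of Ring1b and 1 of RYBP. The beta stretch, the longest at 420 kb, had 6 ESC Mel18 peaks, 1 of MES Mel18, 1 of Ring1b and 0 of Cbx2 and RYBP. The gamma stretch, the shortest at 250 kb, had 26 ESC Mel18 peaks, 20 of MES Mel18, 20 of Cbx2, 28 of Ring1b and 16 of RYBP. It therefore held 50% of the ESC Mel18 peaks of the window (interval 35.8 to 64.2) and 90.9% of the MES Mel18 peaks (interval 70.8 to 98.9). The share was 95.2% for Cbx2, 90.3% for Ring1b and 94.1% for RYBP. Per 100 kb, ESC Mel18 had 6.06 peaks in the alpha, 1.43 in the beta and 10.4 in the gamma stretch, and MES Mel18 had 0.303, 0.238 and 8.00.

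**Figure D2:**
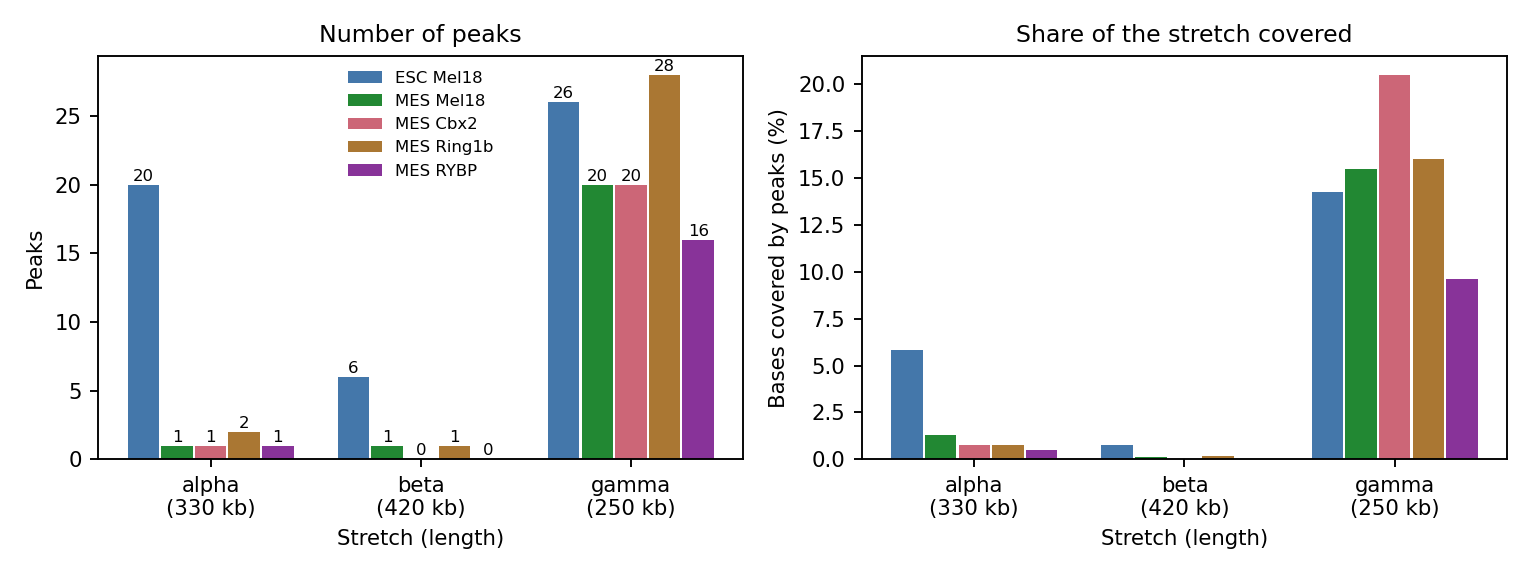
Number of peaks (left) and percentage of bases covered by peaks (right) in each stretch, 1 bar per list and 1 sample per bar. In the alpha stretch ESC Mel18 had 20 peaks and covered 5.85% of the bases, while the MES lists had 1 or 2 peaks each, and in the gamma stretch all 5 lists had 16 to 28 peaks.

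By covered length too, ESC Mel18 led in the alpha stretch, whereas in the gamma stretch the order of the lists was not that of their peak numbers. ESC Mel18 peaks covered 19.3 kb (5.85%) of the alpha stretch, against 4.34 kb (1.32%) for MES Mel18, 2.53 kb for Cbx2, 2.60 kb for Ring1b and 1.69 kb for RYBP. In the gamma stretch ESC Mel18 covered 35.6 kb (14.3%) and MES Mel18 38.7 kb (15.5%). MES Mel18 thus covered slightly more than ESC Mel18 with 20 peaks against 26. Cbx2 covered the most there, 51.2 kb (20.5%), although it had fewer peaks than Ring1b, which covered 40.1 kb (16.0%). RYBP covered the least, 24.0 kb (9.61%). In the beta stretch no list covered more than the 0.740% of ESC Mel18.

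In the alpha stretch, Mel18 of ESCs was found in clusters that were absent from the MES lists. One cluster of 8 peaks spanned chr18:37105435-37122559 (17125 bp) and another of 9 peaks spanned chr18:37159041-37182279 (23239 bp). The other 3 peaks lay alone, at chr18:37091503-37092434, chr18:37249312-37250677 and chr18:37302613-37305107. MES Mel18 overlapped 1 of these 20 peaks (5.0%, interval 0.127 to 24.9). Some of the 20 lay very close together, and with peaks within 1 kb joined MES Mel18 overlapped 1 of 10. The 19 peaks without MES Mel18 were 95% of the stretch, against 47.4% of the whole ESC Mel18 list and 19.2% (5 of 26, interval 6.56 to 39.4) of the gamma stretch. No peak of any MES list was found at 18 of the 20 (90.0%), against 25.6% of the whole list. The window as a whole, at 29 of 52 without MES Mel18 (55.8%, interval 41.3 to 69.5), had an interval that holds the share of the whole list, and the alpha and gamma stretches lay on opposite sides of that share.

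The ESC Mel18 peaks of the alpha stretch were not the low-scoring ones. Of the 20, 11 were in the third quartile of the ESC Mel18 score and 2 in the highest, and their median percentile was 61.5, near the 60.5 of the 26 gamma peaks. In the third quartile, all 11 alpha peaks lacked a MES Mel18 peak (interval 71.5 to 100%), against 1 of 11 gamma peaks (9.09%, interval 0.230 to 41.3) and 35.2% of the whole list. In the second quartile, 5 of 5 alpha peaks and 2 of 8 gamma peaks lacked one, against 62.8% of the list. In the lowest quartile, 2 of 2 alpha and 2 of 2 gamma peaks lacked one, against 82.5% of the list. In the highest, 1 of 2 alpha peaks and 0 of 5 gamma peaks lacked MES Mel18, against 8.98% of the list. With 5 peaks the interval of that 0 reached 52.2%, so the highest quartile did not separate the stretches.

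**Figure D3:**
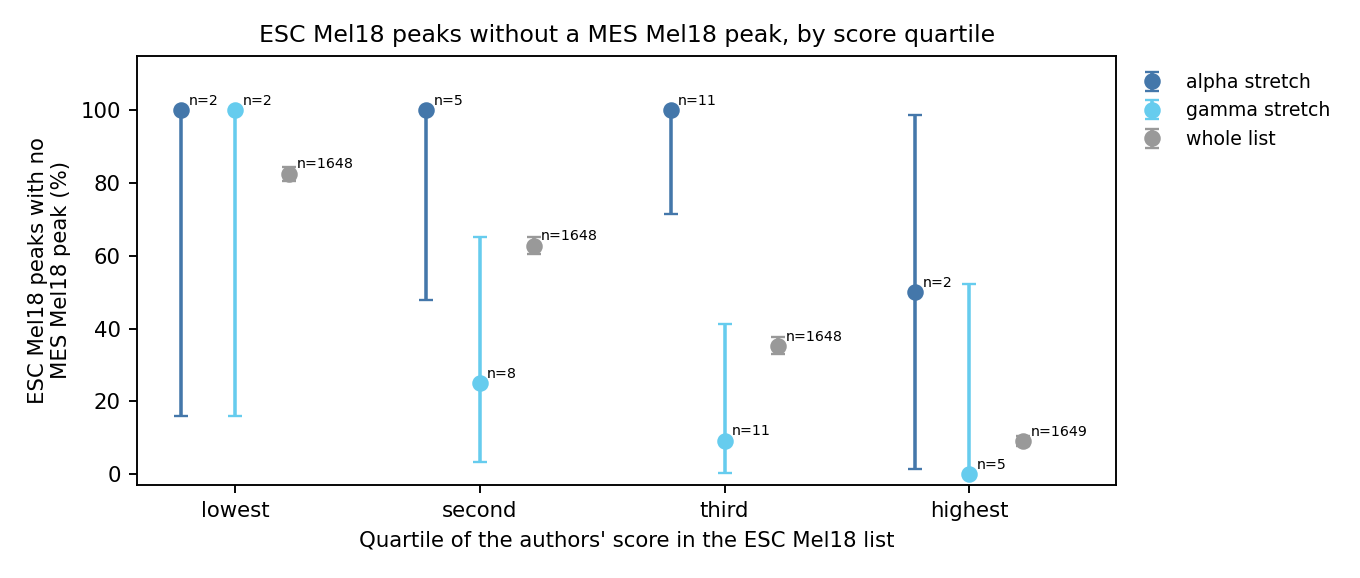
Percentage of ESC Mel18 peaks with no MES Mel18 peak (y axis) in each quartile of the authors' score (x axis) for the alpha stretch, the gamma stretch and the whole ESC Mel18 list, with exact 95% intervals and the number of peaks beside each point. In the third quartile the alpha stretch stood at 100% (n = 11), the gamma stretch at 9.09% (n = 11) and the whole list at 35.2%.

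Few other stretches had so many ESC Mel18 peaks and so few MES Mel18 peaks. In a comparison chosen after the values were seen, the genome was laid out in bins of 330 kb in register with the alpha stretch. ESC Mel18 had 10 or more peaks in 29 bins, with a median of 12 ESC and 6 MES Mel18 peaks, and 4 bins held more ESC Mel18 peaks than the alpha stretch. In 2 of the 29 bins MES Mel18 had at most 1 peak. One was the alpha stretch and the other lay near the start of chromosome 9 (2730001 to 3060000), with 17 ESC Mel18, 0 MES Mel18, 0 Cbx2, 12 Ring1b and 2 RYBP peaks. The alpha stretch thus differed from that bin in its Ring1b peaks, 2 against 12. How much of the chromosome 9 bin can be mapped was not examined, which limits this comparison.

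Among the alpha peaks without MES Mel18, the highest scores were those at chr18:37180171-37181328 (percentile 78.7), chr18:37170775-37171971 (percentile 69.2) and chr18:37121648-37122559 (percentile 69.2). The peak from 37180171 was also the only one of the 19 with another MES subunit. A narrow Ring1b peak lay inside it at chr18:37180613-37181084 (472 bp, percentile 11.9). The remaining 18 held no peak of Mel18, Cbx2, Ring1b or RYBP in MES.

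The site of the alpha stretch that was common to all 5 lists lay after these clusters, at chr18:37301068-37305407. In ESCs the Mel18 peak there was 2495 bp wide and at percentile 92.8, the highest of the 52 ESC Mel18 peaks of the window. In MES the Mel18 peak spanned 4340 bp (percentile 82.2), the widest MES Mel18 peak of the window. Cbx2 covered 2525 bp (percentile 79.3), Ring1b 2128 bp (percentile 91.8) and RYBP 1694 bp (percentile 80.7). All 5 peaks were in the highest quartile of their lists, and the RYBP peak was the narrowest.

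The beta stretch had the fewest peaks of the 3, and they scored low in their lists. Its ESC Mel18 peaks, a median of 16500 bp apart over 5 distances, were still closer than the 108.8 kb of the whole list. The 6 ESC Mel18 peaks were 387 to 700 bp wide, their median percentile was 8.90, and the highest, at chr18:37424400-37425080, reached percentile 35.1. A MES Mel18 peak of 444 bp (percentile 1.79) and a Ring1b peak of 653 bp (percentile 16.3) each overlapped a different ESC Mel18 peak. The other 4 of the 6 ESC peaks (66.7%) stood without a MES peak. That was near the 60.6% of the lowest score quartile of the whole list, and 5 of the 6 were in that quartile. Cbx2 and RYBP had 0 peaks, and no merged region, made by joining overlapping peaks of the 5 lists, held more than 2 lists. The longest runs without a peak of any list were here, 174.7 kb from 37482564 to 37657297 and 142.1 kb from 37679113 to 37821248, the latter reaching into the gamma stretch. Cbx2 had a gap of 516.2 kb between its peak in the alpha stretch and its next peak, and RYBP one of 516.7 kb.

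In the gamma stretch, all 5 lists marked a row of closely spaced sites. ESC Mel18 peaks followed each other at a median of 2847 bp between centres, MES Mel18 peaks at 4992 bp, Cbx2 peaks at 4896 bp, Ring1b peaks at 3967 bp and RYBP peaks at 5157 bp. Of these distances, 23 of 25 were under 10 kb in ESC Mel18 and 17 of 19 in MES Mel18. Cbx2 had 16 of 19, Ring1b 23 of 27 and RYBP 11 of 15. Over the whole lists such distances were 26.5, 20.5, 14.6, 17.9 and 16.1% of all, in the same order. When peaks of any list within 1 kb were joined, the stretch had 18 sites. Of the 17 distances between their centres, 12 were between 3 and 10 kb, with 4370 bp the shortest, and 5 were over 10 kb. Of the latter, those of 12449 and 14665 bp lay on either side of the centre of a joined site of 18626 bp. They reflect its width and not sparse peaks. Of the 18 sites, 7 held all 5 lists, 4 held 4 lists, 4 held 3 lists and 3 held 1 list. Joining by itself raises the number of lists per site, and sites joined in this way were not counted over the genome.

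**Figure D4:**
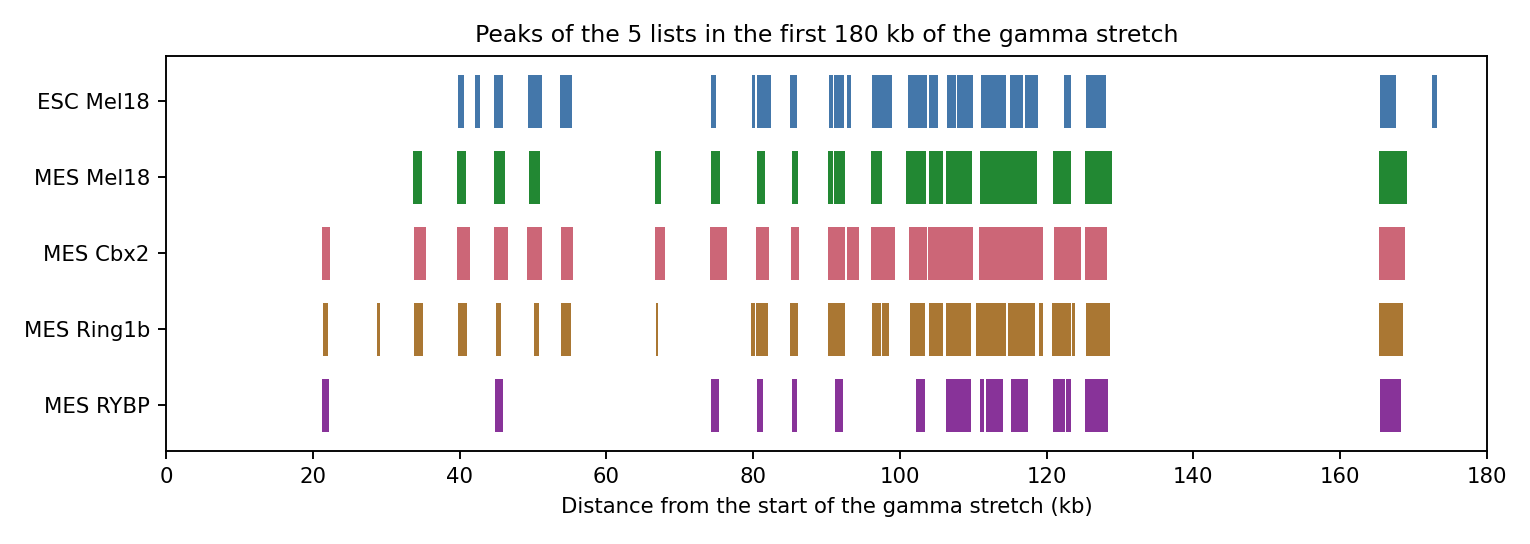
Peaks of the 5 lists drawn to scale in the initial 180 kb of the gamma stretch (x axis, distance from the start of the stretch in kb), 1 row per list. Narrow peaks recurred every few kb over the earlier part, with fewer of RYBP than of the other lists, and were followed by a denser run of peaks in all 5 lists.

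The earliest gamma peaks were of MES lists other than Mel18, subunits that were not mapped in ESCs. Cbx2 and RYBP peaks began at 37821249 and a Ring1b peak at 37821360, where neither Mel18 list had a peak. Ring1b alone was found at chr18:37828656-37829173. MES Mel18 joined Cbx2 and Ring1b from chr18:37833648 on, with a Mel18 peak of 1264 bp at percentile 38.7. The earliest ESC Mel18 peak of the gamma stretch began at 37839697, so between the Mel18 lists the start differed by 1 MES peak. Altogether 5 of 25 merged regions of the gamma stretch lacked ESC Mel18, against 55.5% of those of the series: these 3, one at chr18:37866600-37867936 with MES Mel18, Cbx2 and Ring1b, and a Ring1b peak alone at chr18:38012661-38013300.

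Most Mel18 peaks of the gamma stretch in 1 state overlapped one in the other state. MES Mel18 overlapped 21 of 26 ESC Mel18 peaks (80.8%, interval 60.65 to 93.45) and ESC Mel18 overlapped 18 of 20 MES Mel18 peaks (90.0%, interval 68.3 to 98.8), against 66.3% of the whole MES Mel18 list. MES Mel18 covered 80.3% of the bases of ESC Mel18 peaks in this stretch, against 12.9% in the alpha stretch and 67.6% over the whole list. In the 15 merged regions with both, the MES length was the greater in 11, close to the 74.9% of such regions in the genome, and the median ratio of MES to ESC length was 1.18 (range 0.51 to 2.75), against 1.24 over all such regions of the genome. The MES Mel18 peaks without ESC Mel18 were those at 37833648 and at chr18:37866628-37867413 (percentile 7.17). The ESC Mel18 peaks without MES Mel18 with the highest scores were those at chr18:37853731-37855297 (percentile 64.6), which overlapped Cbx2 and Ring1b, at chr18:37879848-37880278 (percentile 44.4), which overlapped Ring1b, and at chr18:37972529-37973296 (percentile 28.9), which stood alone.

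In the gamma stretch, all MES Mel18 peaks overlapped Cbx2, and fewer overlapped RYBP. A Cbx2 peak overlapped 20 of 20 MES Mel18 peaks (interval 83.2 to 100%), against 73.3% of the whole MES Mel18 list. A Ring1b peak overlapped 19 of 20 (95%, interval 75.1 to 99.9), against 81.2%, which lies inside the interval, and the exception was the MES Mel18 peak at chr18:37874268-37875523. A RYBP peak overlapped 13 of 20 (65.0%, interval 40.8 to 84.6), against 72.4%, which lies inside the interval. Cbx2 covered 95.5% of the bases of these MES Mel18 peaks, Ring1b 84.7% and RYBP 59.5%. Over the whole MES Mel18 list the shares were 84.7% for Cbx2, 79.4% for Ring1b and 56.1% for RYBP, the same order.

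Read from Ring1b or RYBP, Cbx2 was again the most frequent partner in the gamma stretch. Of the 20 Cbx2 peaks, 18 overlapped Ring1b, 17 MES Mel18 and 12 RYBP. Over the whole Cbx2 list the shares were 78.9, 74.1 and 75.0%, in this order. Of the 28 Ring1b peaks, 25 overlapped Cbx2 (89.3%, interval 71.8 to 97.7), against 40.6% of the whole Ring1b list, and 20 overlapped MES Mel18 (71.4%, interval 51.3 to 86.8), against 42.4%. RYBP overlapped 14 of the 28 (50%, interval 30.65 to 69.35), against 64.7%, which lies inside the interval. Over the whole Ring1b list RYBP was thus the most frequent of these 3 partners. Among the 28 gamma peaks it was the least frequent, and this change of order was not tested. The RYBP list was also the longest of the 3, with 7614 peaks against 4165 of MES Mel18 and 3679 of Cbx2. In the gamma stretch RYBP covered the fewest bases, 9.61% against 15.5% for MES Mel18 and 20.5% for Cbx2. Of the 16 RYBP peaks, all 16 overlapped Cbx2 (interval 79.4 to 100%), against 45.7% of the whole RYBP list. Ring1b overlapped 15 of the 16, against 76.0%, and MES Mel18 also 15, against 45.9%. The RYBP peak without MES Mel18 was the one at chr18:37821249-37822199.

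Of the 25 merged regions of the gamma stretch, 10 held all 5 lists (40.0%, interval 21.1 to 61.3), against 15.7% of the 12154 merged regions of the series. The most frequent other make-up was all lists but RYBP, at 4 of 25 regions, against 1.26% of the series. The alpha stretch had 1 region of 20 with all 5 lists and the beta stretch 0 of 6, so the window as a whole had 11 of 51 (21.6%, interval 11.3 to 35.3), an interval that holds the share of the series. In the alpha stretch ESC Mel18 stood alone at 18 of 20 regions, in the beta stretch at 4 of 6 and in the gamma stretch at 2 of 25, against 13.9% of the regions of the series. All alpha and beta regions and 20 of the 25 gamma regions held ESC Mel18. In the series only 5405 of the 12154 regions held it, and it stood alone at 1689 of these 5405.

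In every list the peaks of the highest score quartile began 91.0 kb or more into the stretch. In ESC Mel18 they lay mid-row, as lower-scoring ESC Mel18 peaks followed up to 37973296. The correlation of score with position was highest in Cbx2 and MES Mel18. The 5 ESC Mel18 peaks of the highest score quartile lay between 37891086 and 37916764, the 6 of MES Mel18 between 37891058 and 37928876 and the 5 of Cbx2 between 37891021 and 37928233. The 8 of Ring1b began at 37891047 and ended at 37968610, and the 5 of RYBP lay between 37906327 and 37967725. No list had a peak of its highest quartile earlier in the stretch, although ESC Mel18 had 10 peaks before its earliest such peak, MES Mel18 9, Cbx2 11, Ring1b 13 and RYBP 7. Across the peaks of the stretch, Spearman's rho of position with score percentile was 0.76 for Cbx2 (n = 20) and 0.68 for MES Mel18 (n = 20). It was 0.39 for Ring1b (n = 28), 0.21 for ESC Mel18 (n = 26) and 0.15 for RYBP (n = 16). With width, rho was 0.65 for Cbx2, 0.61 for MES Mel18, 0.37 for Ring1b, 0.25 for ESC Mel18 and 0.18 in RYBP, so peaks were wider later in the row mainly in Cbx2 and MES Mel18. These are descriptions over peaks that share 1 library each.

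**Figure D5:**
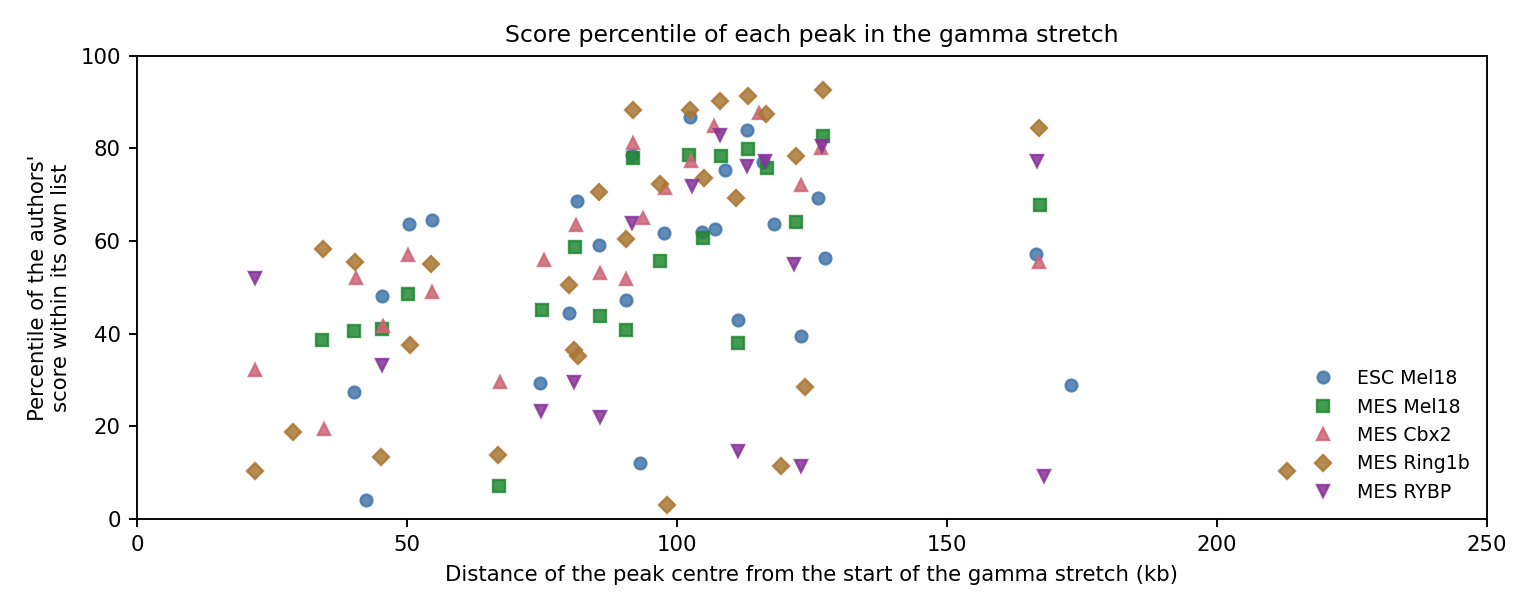
Percentile of the authors' score within its own list (y axis) for each peak of the gamma stretch against the distance of its centre from the start of the stretch in kb (x axis), 1 symbol per list. Percentiles above 75 were found only in peaks that began 91.0 kb or more from the start, and for RYBP 106.3 kb or more.

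The widest sites lay late in the row, and the lists divided them into different numbers of peaks. The widest merged region of the window, chr18:37910450-37919488 (9039 bp), held 1 Cbx2 peak of 8635 bp, which was the widest and highest-scoring Cbx2 peak of the window (percentile 87.7). The same region held 4 ESC Mel18, 3 MES Mel18, 4 Ring1b and 3 RYBP peaks, which covered 74.8, 84.5, 89.1 and 57.7% of it, and Cbx2 covered 95.5%. In the region chr18:37903843-37910013 (6171 bp) Cbx2 again had 1 peak that covered 100% of it, against 3 peaks and 75.0% for ESC Mel18, 2 and 90.2% for MES Mel18, 2 and 87.5% for Ring1b, and 1 and 54.7% for RYBP. In chr18:37920805-37924730 (3926 bp) ESC Mel18 covered 22.8%, the lowest share of the 5 lists. MES Mel18 covered 62.6%, Cbx2 93.1%, Ring1b 74.3% and RYBP 60.6% of it. ESC Mel18 had its widest peak of the window at chr18:37911670-37914408 (2739 bp). The widest Ring1b peak lay at chr18:37914715-37918396 (3682 bp), and the widest RYBP peak, also its highest, at chr18:37906327-37909699 (3373 bp, percentile 82.9). MES Mel18 (percentile 82.7) and Ring1b (percentile 92.5) had their highest scores in peaks that began at 37925303 and 37925399.

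Some breaks between peaks fell at the same place in several lists, a pattern singled out after the values were seen. Of several such places, those described here are the 2 at which 4 lists had a break under 300 bp. At the earlier, 4 lists had a small peak that ended and a higher one that began. The ESC Mel18 peaks were separated by 200 bp (37890885 to 37891086), those of MES Mel18 by 112 bp (37890945 to 37891058), those of Cbx2 by 16 bp (37891004 to 37891021) and those of Ring1b by 39 bp (37891007 to 37891047). The peak before the break stood at percentile 47.2 for ESC Mel18, 40.7 for MES Mel18, 51.7 for Cbx2 and 60.5 for Ring1b, and the peak after it at 78.5, 77.9, 81.1 and 88.2. RYBP had a peak only after the break, from 37891161. The later break lay at 37911564 to 37911670 in ESC Mel18 (105 bp), and at 37911615 to 37911675 in MES Mel18 (59 bp), 37911552 to 37911675 in Ring1b (122 bp) and 37911539 to 37911764 in RYBP (224 bp), where the Cbx2 peak ran through.

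After this run the lists had a further site at chr18:37965298-37969180, where all 5 lists had peaks and MES Mel18 covered 97.8% of the region against 56.8% for ESC Mel18. The last peak inside the window was the Ring1b peak at 38012661. Outside it, the nearest later peak was a Ring1b peak at chr18:38094222-38095522, 44.2 kb past the end. The earliest peak inside was the ESC Mel18 peak at 37091503, and the nearest before the window was a site at which all 5 lists had a peak, with ESC Mel18 at chr18:36884638-36886753, 163.2 kb before the start. The borders between the stretches fell in empty sequence, 74.6 kb past the common alpha site and 44.4 kb before the next beta peak, and 120.9 kb past the last beta peak and 21.2 kb before the earliest gamma peak.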

How the data were processed

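The series comprised 15 samples, of which 5 peak lists were used, and the IgG and RNA-seq samples were not analysed here. The deposited lists gave the position of each peak on mm9 and 1 score of the authors per peak, and the peak names carried the tag of the MACS caller, per the file contents. Bowtie, TopHat and mm9 were named per the submitters' processing notes. The sources used here do not state caller version, settings, control, depth or pooling. Scores were used only to rank peaks within a list.

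Peaks belonged to a stretch by their centre. Overlap meant at least 1 bp shared, clusters joined peaks of 1 list within 10 kb, and quartiles were of each list's score. Shares carry exact 95% binomial intervals. Positions count from 1. RefSeq (GRCm38.p6) gave gene names and order only. Sequences of this locus were not printed.

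Regions were named by rule: per stretch, the 3 widest regions with all 5 lists and up to 3 highest-scoring peaks with Mel18 in 1 state only, then the widest, highest and outermost peaks of each list, and those nearest the stretch borders. The window, stretches and rules were chosen with earlier results of these data known. Overlaps computed here and with bedtools 2.31.1 differed at 0 peaks over 20 list pairs, and the code was tested on simulated data. The work used matplotlib 3.10.9, scipy 1.17.1, pandas 2.3.3 and numpy 2.4.6 in Python 3.11.15.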

Additional observations from a re-analysis of the deposited data

How the results depend on the processing

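No paired analysis was possible because every group held a single sample. Of 138 recomputed values, 114 stayed within their interval or within 1.5 times and 24 moved. Changes of order between lists were not counted. The share of ESC Mel18 peaks on MES Mel18 ranged from 5 to 10% in the alpha stretch and from 76.9 to 89.5% in the gamma stretch, in alternatives by stretch that were added after the data were examined. With only the upper 50% of peaks by score kept, which removes peaks by construction, the window held 29 ESC Mel18, 12 MES Mel18, 18 Ring1b and 10 RYBP peaks. There ESC Mel18 peaks had a median width of 1318 bp and a median distance of 5330 bp, Ring1b peaks a median width of 1700 bp, Cbx2 was at 100% of MES Mel18 peaks, and the beta stretch had 0% covered by ESC Mel18, MES Mel18 and Ring1b. In lists of equal length, 33 ESC Mel18, 15 Ring1b and 10 RYBP peaks were present. MES Mel18 had 20 peaks and Cbx2 21, so Ring1b no longer had the most of the MES lists. Of the MES Mel18 peaks of the window, Cbx2 was then at 100%, Ring1b at 75% (from 90.9%) and RYBP at 45% (from 63.6%). Gamma regions with all 5 lists went from 40 to 28.6%. The lower shares of Ring1b, RYBP and all 5 lists stayed inside their intervals. With peaks within 1 kb joined, 33 ESC Mel18 and 20 Ring1b peaks were present, the median ESC Mel18 width was 1567 bp, and median distances were 6606 bp for ESC Mel18, 6700 bp for MES Mel18 and 7200 bp for Ring1b. With centres within 1 kb, Ring1b stayed at 90.9% of MES Mel18 peaks and so exceeded Cbx2, which was at 72.7%, against 95.5%. The MES Mel18 peaks no longer counted lay inside Cbx2 peaks of 6171 and 8635 bp, with centres over 1 kb from the Cbx2 centre. Clusters of 5 or more peaks numbered 1 for Cbx2 and 1 for Ring1b when joined within 20 kb, against 2 each within 10 kb. Moving the inner borders by 20 kb either way changed no count of peaks per stretch. It could not have done so, since the peak nearest to a border lay 21.2 kb from it. Read depth, which was unknown, limits every count of peaks.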
